A study of Mus musculus with 4 samples.

Results

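Proteasome subunit genes were examined in RNA-seq data of the mouse heart. They were taken as every gene whose symbol is Psma, Psmb, Psmc, Psmd or Psme followed by a number and that had 10 or more reads in at least 1 of the 4 libraries. Of 23337 genes listed, 43 have such a symbol and 42 had enough reads. The gene left out, *Psmb11*, which encodes a subunit made in the thymus, had 1 read in the 2-month control library and 0 in the other 3, where a count of 0 allows up to 3 reads. The 42 genes comprised 8 alpha and 7 beta subunits of the core particle, the 3 immunoproteasome subunits *Psmb8*, *Psmb9* and *Psmb10*, 6 ATPases of the regulatory particle, 14 non-ATPase genes and 4 activators. The non-ATPase group took in every Psmd symbol, so beside subunits of the regulatory particle it also held assembly chaperone genes such as *Psmd10*.

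All mice were C57BL6/J and carried PIMT fl/fl alleles, in which loxP sites flank part of the gene for PIMT, an RNA cap methyltransferase listed under the symbol *Tgs1*. The controls were PIMT fl/fl mice without Cre, at 2 and at 6 months of age, whose genotype is labelled WT. The csPIMT-/- mice of the same ages carried in addition a Cre transgene under the α-myosin heavy chain promoter, which is active in cardiomyocytes, so that the presence of Cre and the loss of PIMT cannot be told apart and non-cardiomyocytes of the heart keep the gene. RNA of 5 hearts of males and females was pooled in each of the 4 groups, and each pool gave 1 library. There was no replicate library, and no comparison at a single age has a test. Between 29823073 and 40705783 reads were recovered per library. *Tgs1*, the deleted gene, had 670 reads in the younger control and 928 in the older, against 130 and 156 in csPIMT-/-, so its normalized count was lower in both, by ratios of 0.271 and 0.194.

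The proteasome is the protease that degrades ubiquitin-tagged proteins in the cytoplasm and nucleus. Its core particle is a barrel whose outer rings are built of alpha subunits, which gate the entry, and whose inner rings are built of beta subunits, of which *Psmb5*, *Psmb6* and *Psmb7* carry the proteolytic sites. A regulatory particle of ATPases, which unfold substrates, and non-ATPase subunits, which bind ubiquitin, remove it and hold the lid together, sits on the barrel. In cells exposed to interferon, *Psmb8*, *Psmb9* and *Psmb10* take the places of the constitutive catalytic subunits and form the immunoproteasome, which is known for making peptides for class I antigen presentation. In the heart muscle the ubiquitin-proteasome system turns over sarcomere and signalling proteins.

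The subunit genes did not move as a block in csPIMT-/- hearts. Each value below is the ratio of the normalized count in csPIMT-/- over that in its age-matched control, beside a 95% interval that covers counting error only. Among the core particle genes, all 7 beta subunits had ratios above 1 at both ages, with a group median of 1.84 at 2 months and 1.77 at 6 months, whereas 6 of the 8 alpha subunits had ratios below 1 at each age. The 3 immunoproteasome genes had ratios from 2.42 to 4.75 at 2 months and from 1.86 to 2.49 at 6 months. *Psme4*, the gene for the activator that acts on acetylated histones, and *Psmc6*, an ATPase, had the lowest ratios, 0.276 and 0.282 at 2 months and 0.175 and 0.248 at 6 months.

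At 2 months, 5 of the 42 genes were below 0.5 and 5 above 2, 11.9% in each direction, beside 23.0% and 16.4% of all 15152 genes compared. At 6 months 9 were below 0.5 and 9 above 2, 21.4% in each direction, beside 25.7% and 16.0% of all 15218 genes. The median log2 ratio of the 42 genes was 0.25 at 2 months and 0.32 at 6 months, and that of all genes was -0.03 at both ages. Between the control libraries, 6 over 2 months, 0 of the 42 were below 0.5 and 1 was above 2, beside 5.21% and 8.15% of all genes. That gene was *Psma8*, an alpha subunit made mainly in the testis, which had 18, 82, 12 and 40 reads in the controls of 2 and 6 months and the csPIMT-/- libraries of 2 and 6 months. The direction of the ratio was shared by both ages in 38 of the 42 genes, 90.5%, beside 78.9% of all genes. The plot of ratios by subunit group shows this spread.

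**Figure D1:**
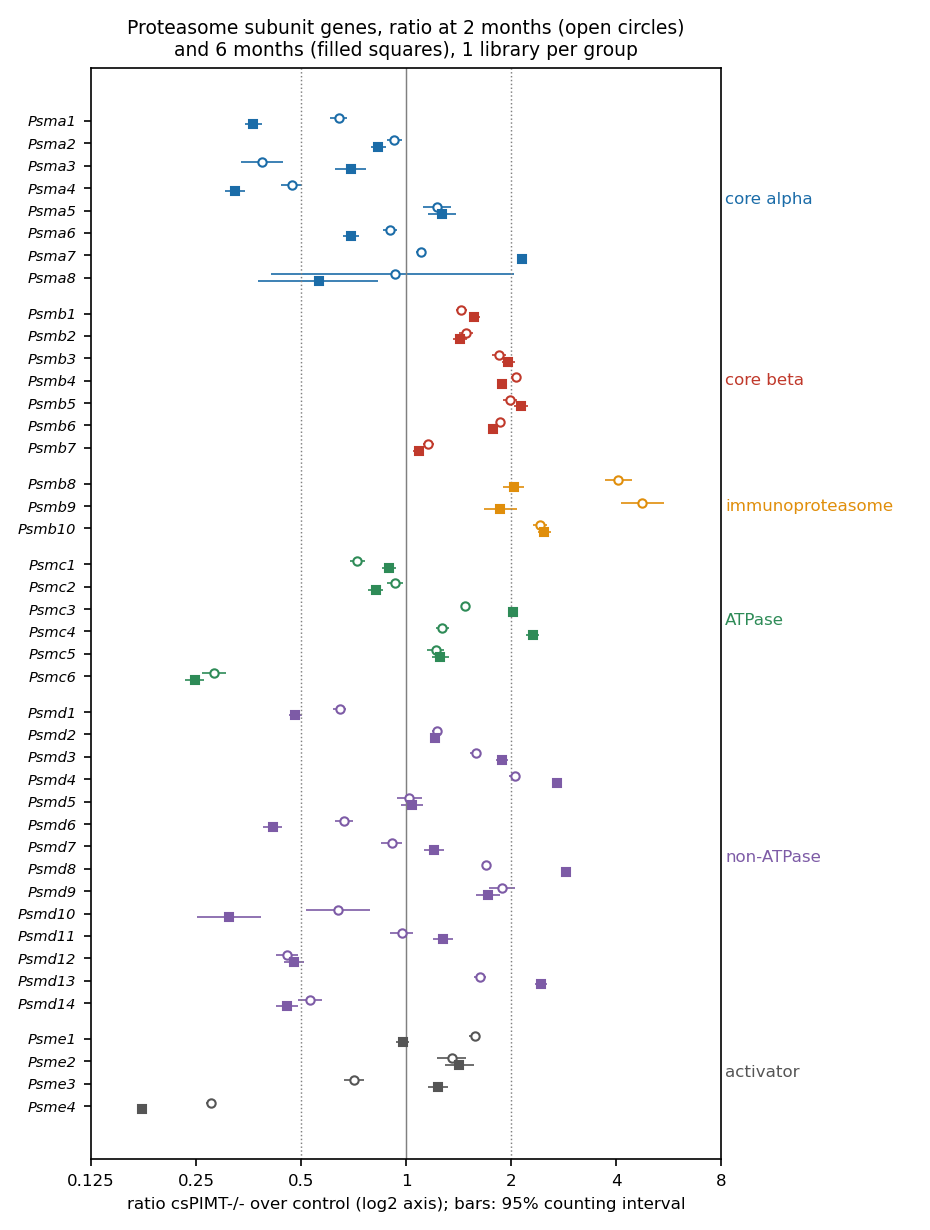
Ratio of the normalized count in csPIMT-/- over control hearts (log2 axis) for the 42 proteasome subunit genes, grouped by role; open circles are 2 months, filled squares 6 months, bars the 95% counting interval, and dotted lines 0.5 and 2. All 7 core beta genes lie above 1 at both ages, and Psme4 and Psmc6 lie farthest to the left.

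A fit over both ages gave the only test of genotype that the 4 libraries allow. In limma, with genotype and age as terms, 7 of the 42 genes fell and 13 rose at an adjusted p below 0.05, 16.7% and 31.0%, beside 17.9% and 12.1% of all 14935 genes tested. Those that fell were *Psma1*, *Psma4*, *Psmc6*, *Psmd1*, *Psmd12*, *Psmd14* and *Psme4*, with log2 differences from -2.14 to -0.80. *Psmb3*, *Psmb4*, *Psmb5*, *Psmb6*, *Psmb8*, *Psmb9*, *Psmb10*, *Psmc3*, *Psmd3*, *Psmd4*, *Psmd8*, *Psmd9* and *Psmd13* rose, with log2 differences from 0.83 to 1.61. Only 1 residual degree of freedom remained, the change of the genotype difference between the ages, so the variance is largely borrowed across genes. That change stands in for a replicate spread that single pools cannot give, and the p-values do not measure variation between replicate pools. Without a mean trend of the variance limma called 0 lower and 0 higher, with 5 and 13 at an unadjusted p below 0.05, and edgeR and DESeq2 on the recovered reads called 5 and 8 lower and 12 and 14 higher. Fitted on genotype alone, 8 were lower and 14 higher with all 4 libraries. In the same fit on 3 libraries, where 1 genotype has a single library assumed to vary like the other, 3 were lower and 0 higher without the 2-month control, 1 and 1 without the 6-month control, 8 and 10 without the 2-month csPIMT-/- library, and 6 and 7 without the 6-month csPIMT-/- library.

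The direction moved with the base composition of the transcript. The 7 genes that fell had a GC content of 37.0% to 46.9%, and the 13 that rose had 52.2% to 58.3%, so these ranges did not overlap. Over the 42 genes the Spearman correlation of GC content with the log2 ratio was 0.863 at 2 months and 0.843 at 6 months, and over all genes with a GC content it was 0.594 (n = 14963) and 0.621 (n = 15027). It was -0.271 over the 42 genes between the control libraries. These points share the same libraries and depths, so the correlations are descriptions. After a lowess trend of the log2 ratio on GC content was subtracted, 0 of the 42 were below 0.5 and 5 above 2 at 2 months, and 1 and 5 at 6 months, and 32 of 42 were above 1 at each age. With this trend subtracted limma called 0 lower and 0 higher, with 1 and 10 at an unadjusted p below 0.05, and 0 of all 14753 genes in either direction. Of the 7 genes that fell, 4 still had a negative estimate and 3 a positive one, against 6 negative when the GC content of the longest transcript was used, and all 13 that rose still had a positive one with either. The ratio moved to the other side of 1 in 12 of the 42 genes at 2 months and in 6 at 6 months. The part of GC content in these ratios was not tested.

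**Figure D2:**
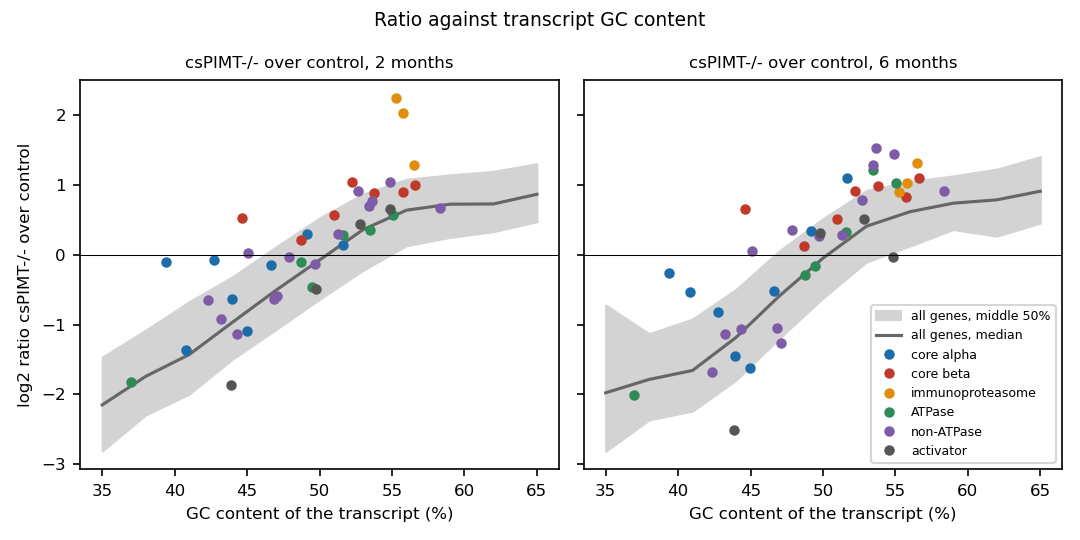
log2 ratio of csPIMT-/- over control against the GC content of the transcript (%) at 2 months (left) and 6 months (right) for the 42 subunit genes, coloured by role; the line is the median of all genes in bins of GC content and the band their middle 50%. Most subunit genes follow the rising line, with the immunoproteasome genes, Psma2 and Psmb1 among those above it at 2 months and Psme4 below it at both ages.

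Promoter sequence is shown for genes of both directions, because the same short motif was in the promoter windows of genes that rose and of genes that fell. RefSeq promoters (GRCm38.p6, 250 bases before to 50 after the start) were given for 35 of the 42 genes, and not used here for *Psma8*, *Psmb1*, *Psmb2*, *Psmb7*, *Psmc3*, *Psmd3* and *Psmd7*. The core of the antioxidant response element, TGACNNNGC, to which factors of the Nfe2l family bind, was found on either strand in 6 of the 35, 17.1%, beside 14.0% of 27025 genes. It was in 3 of the 11 genes that rose and had a promoter and in 3 of the 7 that fell. The CCAAT box was found in 37.1%, beside 41.1% of genes, and TTCNNNGAA, the interferon-gamma activated site, in 5.71%, beside 9.55%. The 6 windows with TGACNNNGC are printed 5′ to 3′ on the strand of the gene, with the match in capitals. *Psmb5* (chr14:54617993-54618082, minus strand), *Psmb6* (chr11:70525292-70525381, plus strand) and *Psmd9* (chr5:123228119-123228208, plus strand) rose in the limma fit.
Psmb5: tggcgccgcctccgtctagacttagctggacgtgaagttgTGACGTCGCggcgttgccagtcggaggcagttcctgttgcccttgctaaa
Psmb6: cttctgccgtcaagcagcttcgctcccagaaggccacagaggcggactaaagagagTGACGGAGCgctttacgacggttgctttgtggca
Psmd9: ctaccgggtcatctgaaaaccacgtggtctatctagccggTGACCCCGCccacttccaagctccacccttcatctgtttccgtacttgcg
*Psmc6* (chr14:45329574-45329663, plus strand), *Psmd12* (chr11:107479278-107479367, plus strand) and *Psme4* (chr11:30771710-30771799, plus strand) fell.
Psmc6: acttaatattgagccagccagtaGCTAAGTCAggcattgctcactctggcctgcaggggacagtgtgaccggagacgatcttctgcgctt
Psmd12: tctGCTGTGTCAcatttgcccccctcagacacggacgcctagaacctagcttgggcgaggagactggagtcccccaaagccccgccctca
Psme4: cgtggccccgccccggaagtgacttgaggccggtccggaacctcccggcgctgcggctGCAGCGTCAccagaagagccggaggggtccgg
A match in these windows is a description and not a measured site, and a window without one says nothing of the factor. The matches began at positions -47, -9 and -31 in *Psmb5*, *Psmb6* and *Psmd9* and at -227, -247 and -7 in *Psmc6*, *Psmd12* and *Psme4*, counting the RefSeq start as 0. For *Psmd9* that start lies downstream of the annotated one, so its window is inside the annotated span of the gene (chr5:123169413-123250131).

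Of the 8 alpha ring genes 2 fell and 0 rose in the limma fit, 25% lower beside 17.9% of all genes. *Psma4*, an alpha subunit, had normalized counts of 2854.6 and 3452.8 in the controls of 2 and 6 months, and of 1371.0 and 1148.6 in the csPIMT-/- libraries of 2 and 6 months, so both csPIMT-/- values lay below both controls. The ratios were 0.471 (0.440 to 0.504) and 0.324 (0.303 to 0.347), and in the limma fit it fell by 1.31 on the log2 scale (SE 0.243, adjusted p = 0.0193). After the GC trend was subtracted the ratios of *Psma4* were 0.836 and 0.649. *Psma1* also fell, with a log2 difference of -1.0 (SE 0.273, limma adjusted p = 0.0438), and its ratios of 0.641 and 0.365 became 1.26 and 0.829 with the GC trend subtracted. *Psma7* went the other way, with normalized counts of 7831.8 and 6442.2 in the controls and 8810.4 and 14164.4 in csPIMT-/-. Its ratio was 1.10 (1.07 to 1.14) at 2 months and 2.14 (2.08 to 2.20) at 6 months, and its log2 difference of 0.66 did not pass the limma test (SE 0.284, adjusted p = 0.129). *Psma5* had ratios of 1.23 and 1.27, *Psma2* of 0.926 and 0.832, *Psma6* of 0.899 and 0.696, and *Psma3* of 0.388 and 0.693. After subtraction of the GC trend *Psma2* had 2.86 and 2.76, *Psma6* 1.34 and 1.11, and *Psma3* 1.05 and 2.09, and 7 of the 8 alpha genes were above 1 at 2 months and 6 at 6 months, so the direction of this group depended on that step.

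Of the 7 beta ring genes 4 rose and 0 fell in limma, 57.1% higher beside 12.1% of all genes, and all 7 had ratios above 1 at both ages. This held with total reads, TMM factors, the control of the other age, both controls summed and the GC trend subtracted, where the lowest ratio was 1.06 for total reads at 6 months. With the GC trend subtracted, however, 32 of all 42 genes were above 1 at each age. *Psmb5*, which carries the chymotrypsin-like site, had normalized counts of 2649.5 and 2553.1 in the controls and 5368.1 and 5606.5 in csPIMT-/-, so the genotypes did not overlap. Its ratios were 1.99 (1.90 to 2.08) and 2.14 (2.04 to 2.24), and it rose by 1.09 in the limma fit (SE 0.202, adjusted p = 0.0194). *Psmb6*, the caspase-like subunit and the beta gene with the highest level per kb, had 6939.7, 7442.2, 13151.5 and 13526.7 in the controls of 2 and 6 months and the csPIMT-/- libraries of 2 and 6 months, ratios of 1.86 and 1.77, and a log2 difference of 0.90 (SE 0.208, limma adjusted p = 0.0298). The GC-subtracted ratios of *Psmb6* were 1.25 and 1.19 and its limma difference was 0.29 (adjusted p = 0.392). *Psmb7*, the trypsin-like subunit, moved least, with 6084.8, 6143.2, 7190.4 and 6849.7, ratios of 1.16 and 1.09, and a log2 difference of 0.21 that did not pass the limma test (SE 0.204, adjusted p = 0.460). Those of *Psmb7* went up with the GC trend subtracted, to ratios of 1.405 and 1.33. The structural subunits *Psmb3* and *Psmb4* rose as well, by 0.97 and 1.02 in limma (adjusted p = 0.0238 and 0.0232), and *Psmb1* and *Psmb2* had 0.63 and 0.58 with adjusted p = 0.0656 and 0.0782. With the GC trend subtracted the beta ratios ran from 1.25 to 2.64 at 2 months and from 1.19 to 3.27 at 6 months, the highest in *Psmb1*, whose transcript has a GC content of 44.7%.

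As deposited, the median levels of the alpha and beta genes lay farther apart in csPIMT-/- than in the controls. No level was computed with the GC trend subtracted, so for that step only ratios of csPIMT-/- over control are given. On the scale of normalized counts per kb of transcript, the median level of the 7 beta genes over that of the 7 alpha genes other than *Psma8* was 1.59 and 1.25 in the controls of 2 and 6 months and 5.27 and 6.33 in csPIMT-/-. The median alpha level was 2450.3 and 2867.2 per kb in the controls and 1176.8 and 985.9 in csPIMT-/-. The median beta level was 3905.4 and 3578.8 in the controls and 6198.6 and 6236.3 in csPIMT-/-. Sums did not show this drop of the alpha genes, at 19466.9 and 18518.6 per kb in the controls and 17911.5 and 21885.5 in csPIMT-/-. The beta sums were 33144.1 and 33101.3 in the controls and 57727.2 and 57097.1 in csPIMT-/-. The alpha genes have a median GC content of 44.5% and the beta genes of 52.2%. With the GC trend subtracted, the median log2 ratios of csPIMT-/- over control were 0.38 for the 8 alpha and 0.49 for the 7 beta genes at 2 months, and 0.55 and 0.48 at 6 months. *Psmb6* and *Psma7* held the highest levels of their rings in all 4 libraries. *Psma3* held the lowest, but its annotated transcript and that of *Psma2* are long, which lowers their values per kb in every library alike. The 42 genes together held 0.454% and 0.473% of the normalized counts in the controls and 0.512% and 0.558% in csPIMT-/-. In bulk heart RNA, fewer cells of a type and less RNA per cell cannot be told apart.

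**Figure D3:**
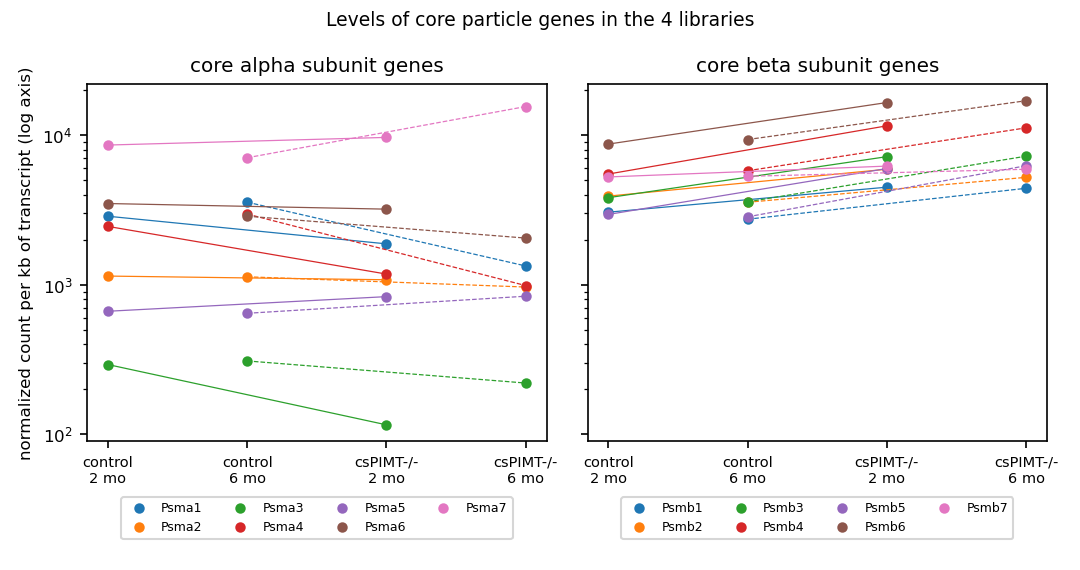
Normalized count per kb of transcript (log axis) of 7 core alpha genes (left, without Psma8) and 7 core beta genes (right) in each of the 4 libraries; solid lines join the 2-month libraries and dashed lines the 6-month libraries. The median of the beta genes was 1.25 to 1.59 times that of the alpha genes in the controls and 5.27 to 6.33 times in csPIMT-/-, without regard to GC content. The summed alpha levels were 19466.9 and 18518.6 per kb in the controls and 17911.5 and 21885.5 in csPIMT-/-. The beta sums were 33144.1 and 33101.3, and 57727.2 and 57097.1. With the GC trend subtracted the alpha and beta median log2 ratios were 0.38 and 0.49 at 2 months and 0.55 and 0.48 at 6 months.

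The immunoproteasome genes rose in csPIMT-/- hearts and, in *Psmb8* and *Psmb9*, also differed between the control ages. *Psmb8* (chr17:34197721-34201454), which takes the place of *Psmb5*, had normalized counts of 567.6 and 1086.2 in the controls of 2 and 6 months and 2349.9 and 2264.9 in csPIMT-/-. *Psmb9* (chr17:34181987-34187764), which takes that of *Psmb6*, had 219.8 and 452.9 in the controls and 1064.0 and 866.6 in csPIMT-/-. For both genes each csPIMT-/- library lay above both controls, and the older control lay above the younger one, by 1.83 (1.66 to 2.01) for *Psmb8* and 1.97 (1.69 to 2.30) for *Psmb9*. *Psmb10* (chr8:105935735-105938444), which takes the place of *Psmb7*, had 2375.2 and 2614.7 in the controls and 5863.7 and 6681.2 in csPIMT-/-, with a control ratio of 1.05 (0.998 to 1.11). The window of the *Psmb8* promoter with the interferon-gamma activated site (chr17:34198058-34198147, plus strand) is printed with the match in capitals. It is the only such match among the 11 genes that rose and had a promoter, beside 9.55% of all genes.
Psmb8: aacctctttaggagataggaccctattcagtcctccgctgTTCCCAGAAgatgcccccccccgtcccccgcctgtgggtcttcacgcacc
Its match begins at position -97 from the RefSeq start. That start lies downstream of the annotated start of *Psmb8*, so the window is inside the span of the gene given above.

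At 2 months the ratios were 4.06 (3.71 to 4.44) for *Psmb8*, 4.75 (4.12 to 5.48) for *Psmb9* and 2.42 (2.31 to 2.54) for *Psmb10*, and at 6 months 2.03 (1.89 to 2.18), 1.86 (1.67 to 2.08) and 2.49 (2.38 to 2.60). With the control of the other age in the place of the own one, *Psmb8* had 2.09 at 2 months and 3.91 at 6 months and *Psmb9* had 2.27 and 3.86, and the ratios between the csPIMT-/- libraries, 6 over 2 months, were 0.937 and 0.792. In the limma fit the log2 differences were 1.56 for *Psmb8* (SE 0.312, adjusted p = 0.0219), 1.61 for *Psmb9* (SE 0.399, adjusted p = 0.0349) and 1.34 for *Psmb10* (SE 0.201, adjusted p = 0.0138). With the GC trend subtracted they were 0.95, 1.04 and 0.69, with limma adjusted p = 0.170, 0.210 and 0.142, and the ratios were 2.74, 3.28 and 1.59 at 2 months and 1.36, 1.27 and 1.62 at 6 months.

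Set against its constitutive partner, each immunoproteasome gene took a larger share at 2 months. *Psmb8* and *Psmb5* have GC contents of 55.8% and 56.6%, and *Psmb9* and *Psmb6* of 55.2% and 55.8%, so these pairs are close in base composition, whereas *Psmb10* has 56.5% and *Psmb7* 48.7%. Reads per kb of *Psmb8* over *Psmb5* were 0.118 (0.109 to 0.129) and 0.235 (0.220 to 0.251) in the controls of 2 and 6 months and 0.242 (0.229 to 0.255) and 0.223 (0.212 to 0.235) in csPIMT-/-. The 2-month control was the low library, and the intervals of the 6-month pair overlapped. *Psmb9* over *Psmb6* gave 0.0187 and 0.0359 in the controls and 0.0477 and 0.0378 in csPIMT-/-. *Psmb10* over *Psmb7* gave 0.345 and 0.377 in the controls and 0.722 and 0.863 in csPIMT-/-. From control to csPIMT-/- the pair ratios changed by factors of 2.04, 2.56 and 2.09 at 2 months for *Psmb8*, *Psmb9* and *Psmb10* and by 0.950, 1.05 and 2.29 at 6 months.

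**Figure D4:**
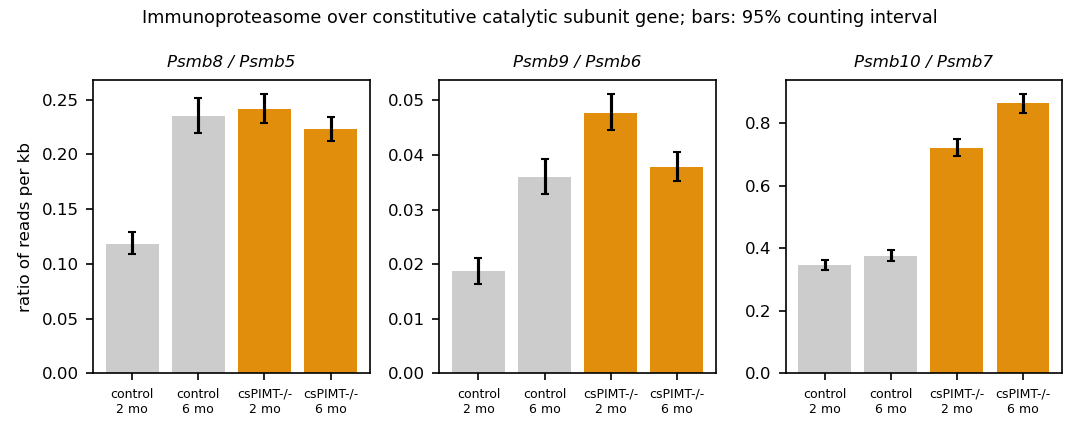
Reads per kb of each immunoproteasome gene over reads per kb of the constitutive subunit gene it replaces, in each library (grey, controls; orange, csPIMT-/-); bars are the 95% counting interval of the 1 library. The first 2 pairs are low in the 2-month control alone, and Psmb10 over Psmb7 is high in both csPIMT-/- libraries.

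Genes of other cells and of the interferon response moved with the immunoproteasome genes, and their part in the result was not tested. Of a list of 20 genes of class I antigen presentation and interferon signalling, all were listed and 19 had enough reads, *Ifng* having 0 in all 4 libraries, which allows up to 3 reads in each. At 2 months 12 of the 19 were above 2 and 0 below 0.5, and at 6 months 4 were above 2 and 3 below 0.5, with median log2 ratios of 1.27 and 0.33. Of all genes compared, 16.4% were above 2 and 23.0% below 0.5 at 2 months, and 16.0% and 25.7% at 6 months. The counts at 6 months were thus near those shares. In limma 5 of the 19 rose and 0 fell, beside 12.1% and 17.9% of all genes: *H2-K1* and *H2-D1*, the class I heavy chains, *Tap1* and *Tapbp* of peptide loading, and *Irf7*, an interferon-induced factor. *H2-K1* had normalized counts of 4177.7, 9572.3, 20144.6 and 22274.0 in the controls of 2 and 6 months and the csPIMT-/- libraries of 2 and 6 months, ratios of 4.73 and 2.27, and a limma log2 difference of 1.75 (SE 0.313, adjusted p = 0.0180). *H2-K1* had GC-subtracted ratios of 3.12 and 1.49, and *Tap1* went from 3.6 and 1.47 to 2.32 and 0.937. The transcription factor *Irf1* had ratios of 1.88 and 0.751. The summed normalized counts of 14 leukocyte markers were 6590.1 and 16987.2 in the controls and 20912.7 and 27386.3 in csPIMT-/-. *Ptprc*, the pan-leukocyte marker CD45, had 411.9 and 948.1 in the controls and 219.5 and 420.3 in csPIMT-/-. Its ratios of 0.522 and 0.432 became 1.33 and 1.25 with the GC trend subtracted, so its direction depended on that step.

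Markers of lung, atrium, brown fat and other cell types also differed between the pools. Whether the tissue taken or the expression within the heart differed was not tested. The summed normalized counts of 7 lung markers were 39.8 and 23.8 in the controls and 1178.7 and 98.8 in csPIMT-/-, with *Sftpa1*, *Sftpb*, *Sftpc*, *Sftpd*, *Scgb1a1* and *Bpifa1* at 0 in at least 1 library, and those of 4 atrial markers were 40736.5 and 114956.8 in the controls and 325567.4 and 348345.4 in csPIMT-/-. Most of the atrial sum was *Nppa*, a natriuretic peptide gene that a failing ventricle also expresses, with ratios of 5.17 and 4.42. The other 3 atrial markers were higher at 2 months and lower at 6 months, with ratios of 40.2 and 0.455 for *Myl7*, 48.9 and 0.774 for *Myl4* and 95.4 and 0.411 for *Sln*. Sums over 5 brown fat markers were 3660.2, 2937.5, 7242.1 and 3496.6 in the controls of 2 and 6 months and the csPIMT-/- libraries of 2 and 6 months. In the same order *Ucp1* had 8.65, 93.2, 1765.5 and 12.5, *Adipoq* 5.19, 452.9, 1829.6 and 297.5, and *Elovl3* 1.73, 0, 29.6 and 5.2. *Cidea* had 1888.9, 1014.9, 2560.8 and 2599.8, and *Ppargc1b* 1755.7, 1376.4, 1056.6 and 581.6. Sums over 6 fibroblast markers were 276666.9, 142298.1, 190822.1 and 202441.8, and over 5 endothelial markers 56591.3, 46287.9, 56922.5 and 69982.6. The sums over 5 red cell markers were 3831.5, 2854.8, 2312.9 and 12283.5, all of it *Alas2*, since the 4 globin genes were listed at 0 in every library. All 9 cardiomyocyte markers were present, with sums of 1392981.2 to 1670116.3, within which they moved in opposite directions. *Myh7*, the fetal myosin heavy chain of the mouse ventricle, had ratios of 4.10 and 46.0, *Myh6*, the adult one, 0.974 and 0.749, and *Ryr2*, the calcium release channel, 0.596 and 0.524.

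The ATPase ring was split. *Psmc6* (chr14:45329788-45349705), whose transcript has the lowest GC content of the 42 at 37.0%, had normalized counts of 3192.9 and 5123.0 in the controls and 919.8 and 1303.6 in csPIMT-/-, with no overlap. Its ratios were 0.282 (0.261 to 0.306) and 0.248 (0.233 to 0.264), and it fell by 1.87 on the log2 scale in limma (SE 0.215, adjusted p = 0.0122). Its GC-subtracted ratios were 1.09 and 0.944 and the limma difference 0.0055 (adjusted p = 0.989). *Psmc3* rose, with normalized counts of 9513.9, 10021.7, 14305.5 and 20847.7 in the controls of 2 and 6 months and the csPIMT-/- libraries of 2 and 6 months, ratios of 1.47 and 2.03, and a log2 difference of 0.83 (SE 0.231, limma adjusted p = 0.0461). This call was lost in limma with the deposited normalization (adjusted p = 0.0514), in edgeR (adjusted p = 0.0563) and in limma with the GC trend subtracted (adjusted p = 0.486), where the ratios of *Psmc3* were 1.03 and 1.39. *Psmc4* had ratios of 1.27 and 2.31 and a log2 difference of 0.82 that did not pass the test (limma adjusted p = 0.0679). *Psmc1*, *Psmc2* and *Psmc5* had ratios between 0.725 and 1.25 and did not pass it either.

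Among the 14 non-ATPase genes 5 rose and 3 fell in limma, 35.7% and 21.4%, beside 12.1% and 17.9% of all genes. *Psmd4*, the ubiquitin receptor Rpn10, had normalized counts of 4330.8 and 4743.9 in the controls and 9047.1 and 13214.6 in csPIMT-/-, ratios of 2.05 (1.98 to 2.12) and 2.71 (2.63 to 2.80), and a limma log2 difference of 1.28 (SE 0.218, adjusted p = 0.0166), which was 0.73 with the GC trend subtracted (adjusted p = 0.147). *Psmd8*, a lid subunit, reached the highest ratio of the group at 6 months, 2.88, from 1.70 at 2 months. *Psmd3*, *Psmd9* and *Psmd13* rose too, with limma differences of 0.83, 0.89 and 1.03. With the GC trend subtracted these were 0.11, 0.55 and 0.61 (limma adjusted p = 0.746, 0.216 and 0.201). The ratios of *Psmd3* then went from 1.58 and 1.89 to 0.996 and 1.17. *Psmd12*, a lid subunit, had 2624.4, 2500.4, 1216.9 and 1224.5 in the controls of 2 and 6 months and the csPIMT-/- libraries of 2 and 6 months, so both csPIMT-/- values lay below both controls. The ratios of *Psmd12* were 0.455 (0.423 to 0.489) and 0.477 (0.445 to 0.511), and it fell by 1.06 in limma (SE 0.214, adjusted p = 0.0225), against 0.861 and 1.04 with the GC trend subtracted. *Psmd14*, the deubiquitinase of the lid, fell by 0.98 (SE 0.225, limma adjusted p = 0.0292) and *Psmd1*, a scaffold of the base, by 0.80 (SE 0.223, limma adjusted p = 0.0466). The ratios of *Psmd14* went from 0.530 and 0.455 to 1.13 and 1.12 once the GC trend was subtracted. *Psmd10*, the assembly chaperone gankyrin, had 253.5, 377.3, 165.2 and 120.7, ratios of 0.639 and 0.312, or 1.5 and 0.839 with the GC trend subtracted, and a log2 difference of -1.12 that did not pass the test (limma adjusted p = 0.0953). *Psmd6* was near the threshold, with ratios of 0.663 and 0.415 and a limma adjusted p of 0.0510.

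The activators differed from each other. *Psme4* (chr11:30771726-30880361), which encodes the largest activator, had normalized counts of 18402.3 and 30113.4 in the controls and 5179.5 and 5414.0 in csPIMT-/-. Both csPIMT-/- libraries lay below both controls, and the older control was above the younger one by 1.56 (1.54 to 1.59). The ratios were 0.276 (0.267 to 0.285) and 0.175 (0.170 to 0.180), and *Psme4* fell by 2.14 on the log2 scale in limma (SE 0.255, adjusted p = 0.0122). Once the GC trend was subtracted they were 0.548 and 0.402, the lowest of the 42 genes at both ages, and the limma difference was -1.09 (adjusted p = 0.111). *Psme1* and *Psme2*, the interferon-inducible activator subunits, had smaller ratios than the immunoproteasome genes at both ages. *Psme1* had 4602.5, 4248.8, 7385.2 and 4260.3, ratios of 1.57 (1.52 to 1.63) and 0.977 (0.937 to 1.02), and *Psme2* had 756.3, 685.1, 1043.0 and 997.7, ratios of 1.35 and 1.42. *Psme3*, the nuclear activator subunit, had 2133.8, 1583.1, 1543.6 and 2006.8, ratios of 0.709 and 1.23. None of these 3 passed the limma test, with log2 differences of 0.35, 0.51 and -0.05 and adjusted p = 0.321, 0.159 and 0.893.

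**Figure D5:**
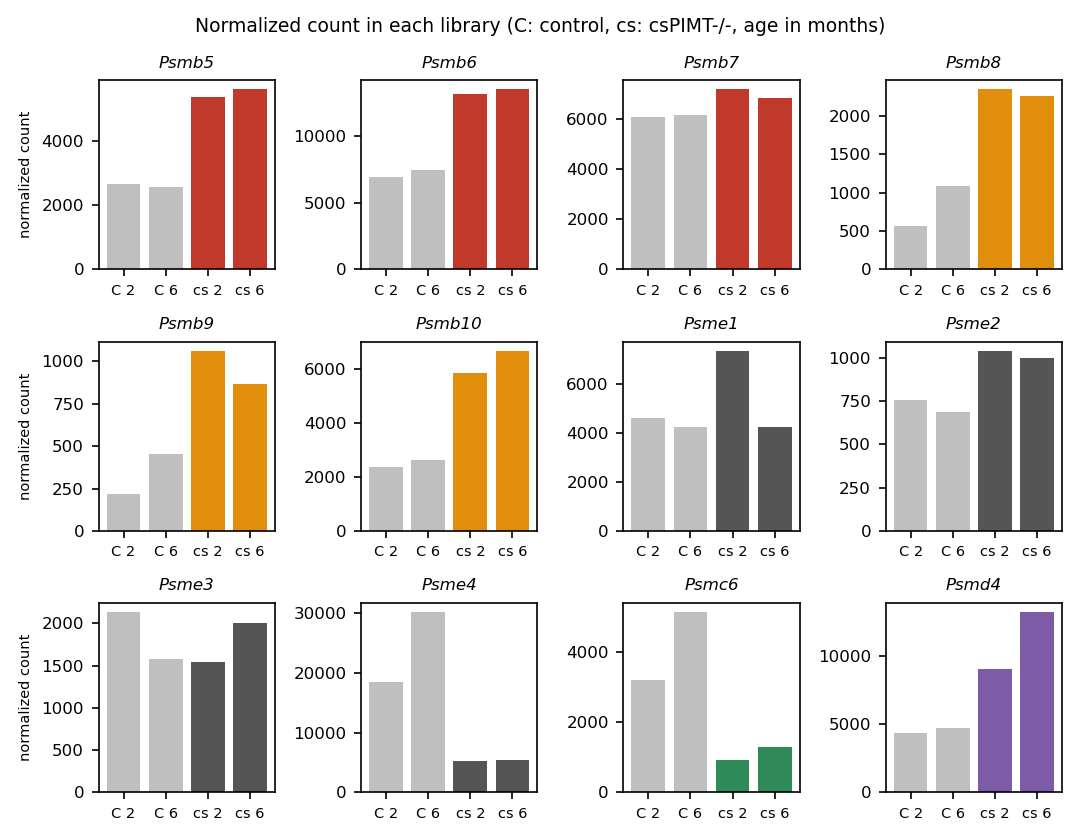
Normalized count in each of the 4 libraries for 12 subunit genes (C, control; cs, csPIMT-/-; the number is the age in months; grey bars are controls and coloured bars csPIMT-/-). Psme4 and Psmc6 are low in both csPIMT-/- libraries, Psmb8, Psmb9 and Psmb10 are high in both, and Psme1 is high at 2 months alone.

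Genes that work with the proteasome were described from 3 further lists, whose counts stand beside 17.9% lower and 12.1% higher of all genes tested. Of 15 symbols of assembly and associated factors, some of them alternative names of the same gene, 12 were listed, and in limma 3 fell and 0 rose. Those that fell were *Uchl5* and *Usp14*, deubiquitinases that bind the regulatory particle, and *AI314180*, which encodes the homologue of yeast Ecm29. *Usp14* had normalized counts of 2218.6, 3184.6, 1319.2 and 1335.8 in the controls of 2 and 6 months and the csPIMT-/- libraries of 2 and 6 months, ratios of 0.583 and 0.409, and with the GC trend subtracted 1.83 and 1.37. Of 9 regulators of proteasome genes 3 fell and 0 rose. They were *Nfe2l2* with ratios of 0.506 and 0.632, *Ngly1* with 0.425 and 0.390 and *Nfyb* with 0.284 and 0.181, and with the GC trend subtracted these were 0.746 and 0.988, 0.973 and 1.03, and 0.766 and 0.546. *Nfe2l1*, the factor known for the recovery of proteasome gene expression, had 16101.5, 15822.7, 14860.3 and 22200.1, ratios of 0.905 and 1.37 and a limma adjusted p of 0.572. Of 14 ubiquitin and shuttle genes 4 rose and 0 fell. Among those that rose, *Ubb*, which encodes ubiquitin, had ratios of 1.58 and 2.77 at 2 and 6 months, and *Nploc4*, a cofactor that delivers ubiquitinated proteins, had 1.74 and 2.10. The genes of these lists that fell had GC contents of 39.2% to 46.8%, and *Ubb* and *Nploc4* had 54.1% and 53.1%.

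Some values may hold reads of other genes. Whether strand was used in the counting is not given in the sources used here, and 8 of the 42 genes overlap a gene on the other strand in the annotation, among them *Psmb9* with *Tap1* and *Psmc3* with *Slc39a13*. *Psma2* and *Psmb5* overlap a gene on the same strand. *Psmb5*, *Psmb6* and *Psmb7* have pseudogenes of the same name, so their values are uncertain to the extent that reads were shared.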

How the data were processed

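RNA-seq was done on 4 pools of mouse heart RNA, each of 5 hearts. The authors enriched mRNA, made directional single-end libraries, trimmed and filtered reads, aligned them to mm10 with STAR, counted them with HTSeq 0.6.1p1 and a UCSC annotation, and normalized with DESeq2. They deposited 1 normalized count per gene and library, a signal on their size-factor scale and not a raw count. One file heads its column as read counts, but its values are normalized too. Division of each library's values by its lowest value other than 0 gave whole reads for 100.0% of them (no value was off by more than 4.9e-09 reads).

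At each age ratios used median-of-ratios factors, genes with 10 or more reads in 1 of the 2 libraries, a pseudocount of 0.5 reads for log2 and 95% Clopper-Pearson intervals, which cover counting error only. No test was made within an age. limma 3.58.1 (R 4.3.3) was fitted on log2(TMM-normalized reads + 1) with genotype, age and a mean trend, for genes with 10 or more counts in 2 libraries and 15 in total, so its differences are on that scale. The Benjamini-Hochberg adjustment ran over all genes. The planned count test was meant for raw counts. On the recovered reads, edgeR 4.0.16 called 2508 genes lower and 1619 higher, and DESeq2 1.42.0 was run as well. The scripts were tested on simulated data.

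GC content was that of the principal transcript in GENCODE M21 (GRCm38), found for 97.9% of symbols, and its trend a lowess curve with a span of 0.3. Coordinates came from the same annotation. The alternative with the longest transcript was chosen after seeing the data. Members and lists were chosen with earlier results of these data known. Genes were named by a rule: the catalytic, immunoproteasome and activator genes, the lowest and highest of the other groups, and those past 2-fold at both ages; other members named beside them were chosen after their values were seen. Some genes of these lists are counted but not reported here by name. Samples were grouped by their labels. The labels give no sequencing batch, so nothing could be compared within batches. Depth was 29823073 to 40705783 reads per library.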

Additional observations from a re-analysis of the deposited data

Results flagged for a closer look

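In 1 activator gene and 1 lid gene the ratios lay on opposite sides of 1 at the 2 ages, with intervals that did not reach 1. *Psme3* had a ratio of 0.709 (0.662 to 0.759) at 2 months and 1.23 (1.16 to 1.32) at 6 months, so the second was 1.74 times the first. In this gene the 6-month control was lower than the 2-month control, with a ratio of 0.709 (0.667 to 0.754), and with the control of the other age the ratios were 0.943 and 0.922. *Psmd7*, a lid subunit, had 0.908 (0.85 to 0.971) and 1.20 (1.13 to 1.28), 1.32 times the first. With the control of the other age they were 1.01 and 1.08. With 1 library per group these differences between ages were not tested.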

How the results depend on the processing

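No paired analysis was possible because each group has 1 library, whose number only names it. Over both ages and the control comparison, 31 values of group counts and medians moved under an alternative and 71 stayed within the limits set for them. At 2 months the count below 0.5 was 0 with the GC trend subtracted, also with the GC content of the longest transcript, 8 with the control of the other age and 10 at 1.5-fold; the count above 2 was 3 with total reads, with both controls summed and with the interval beyond 2-fold, and 13 at 1.5-fold. The median log2 ratio was 0.33 with the GC trend subtracted. At 6 months the count below 0.5 was 1 with either GC trend, the count above 2 was 5 with the GC trend subtracted and 16 at 1.5-fold, and the median was 0.41 with either GC trend. Between the controls the count below 0.5 was 1 with no minimum of reads, and the count above 2 was 2 with either GC trend, 5 at 1.5-fold and 0 with at least 100 reads. The limma counts were 0 lower and 0 higher with no mean trend, with the GC trend subtracted and with the longest transcript; leaving out each library gave 1 to 8 lower and 0 to 10 higher, the counts higher being 0 and 1 without the controls of 2 and 6 months and 10 and 7 without the csPIMT-/- libraries of those ages. With the GC trend subtracted the direction turned in 11 of the 42 limma differences, 12 ratios at 2 months and 6 at 6 months. Among the genes named by rule these were the limma differences of *Psmc6* (0.0055), *Psmd10* (0.18), *Psme1* (-0.20) and *Psme3* (0.029), the ratios of *Psmc6* (1.09) and *Psmd10* (1.5) at 2 months and that of *Psmd12* at 6 months (1.04); *Psma1* and *Psmd14*, which fell in limma, turned as well (0.039 and 0.18). *Psmd3*, which rose in limma, turned in its ratio at 2 months (0.996). The cause was not tested. Of the single-gene values 58 moved, 12 lost their call and 43 did not. Depth limited *Psma8*, whose ratio at 2 months had an interval of 0.409 to 2.04.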

Other observations

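Between the csPIMT-/- libraries, 6 over 2 months, 0 of the 42 subunit genes were below 0.5 and 1 was above 2, *Psma8*, at 2.74, on 12 and 40 reads. The 7 core beta genes had ratios of 0.858 to 1.02, and the 3 immunoproteasome genes of 0.792 to 1.11. *Psme1* had the lowest ratio of the 42, 0.561, and *Psma3* the highest after *Psma8*, 1.85, with *Psma7* at 1.56, *Psmd8* at 1.46 and *Psmd4* at 1.42. Over the 42 genes the Spearman correlation of this ratio with GC content was 0.0976, and over all genes it was -0.0960 (n = 14875).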
